A study of Sorghum bicolor with 8 samples.

Results

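The genes described here are 9 genes of the flavonoid and pigment pathway of sorghum, taken by identifier from 34129 genes in the deposited files. They are 2 chalcone synthases, a chalcone isomerase, a flavanone 3-hydroxylase, a flavanone 4-reductase, DFR3, a flavone synthase II and the regulators Tannin1 and Tannin2. The files give identifiers and positions only, so the enzyme and regulator names are those under which the genes were chosen for what they encode. Levels of expression were not part of the rule that chose them, although earlier results of these data were known at the time.

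Flavonoids are made from phenylpropanoid and malonyl precursors. Chalcone synthase builds the chalcone skeleton, and chalcone isomerase closes its ring to give a flavanone such as naringenin. Flavanones are a branch point. Flavanone 3-hydroxylase leads to dihydroflavonols, and from there to flavonols, anthocyanins and condensed tannins. Flavanone 4-reductase leads to flavan-4-ols, which are linked to the phlobaphene and 3-deoxyanthocyanidin pigments that colour sorghum grain and wounded or infected leaves. Flavone synthase II leads to flavones. In sorghum grain, condensed tannins in the testa depend on Tannin1, a WD40-repeat protein, and Tannin2, a bHLH transcription factor.

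The study compared regenerated leaves and 3 types of callus, unorganised tissue grown in culture, called Callus III, Callus II and Callus I. All came from wild-type plants of the line Hiro-1, and each group had 2 libraries described as biological replicates. Callus was induced on immature embryos of 1 to 2 mm, collected 13 to 15 days after flowering, for 3 weeks in the dark at 25 °C, and the types were then subcultured apart for 20 days. Leaf was leaf tissue regenerated from Callus II on differentiation medium under 2000 lx for 16 h a day, with 8 h dark, so that tissue, light and medium cannot be told apart in any comparison of Leaf with callus. The title of the series refers to different capacities for regeneration, but the labels do not say which callus type regenerated best. No marker genes were used to check the tissue labels, because the files pair no identifier with a name.

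Levels are in FPKM (fragments scaled for transcript length and for the library's total), a unit per length that allows genes to be compared within a library. The sum of FPKM ranged from 595109 to 737291 per library, and 24497 to 26787 genes were above 0. Read totals are not given. The spacing of values under 0.2 FPKM gave a depth relative to Callus I replicate 1 of 1.27 and 1.63 in Leaf, against 0.966 to 1.07 in the other callus libraries. The Leaf estimates rest on 5.85% and 7.44% of low pairs at the commonest spacing, against 13.5% to 16.8% in callus. Differences between groups are on the log2(FPKM + 1) scale from limma, with the standard error (SE, n = 2 libraries per group) and the p-value adjusted by Benjamini-Hochberg over all genes tested. A gene was called at an adjusted p under 0.05. Of the 9 genes, 7 reached 1 FPKM in at least 2 libraries and were tested, among 23166 tested genes. The chalcone synthase of chromosome 7 and Tannin2 did not. Flavanone 3-hydroxylase passed through its Leaf values alone, so that its differences between groups are described without a test and it is left out of the counts of called genes. In these bulk samples, fewer cells of a type and less RNA per cell cannot be told apart.

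**Figure D1:**
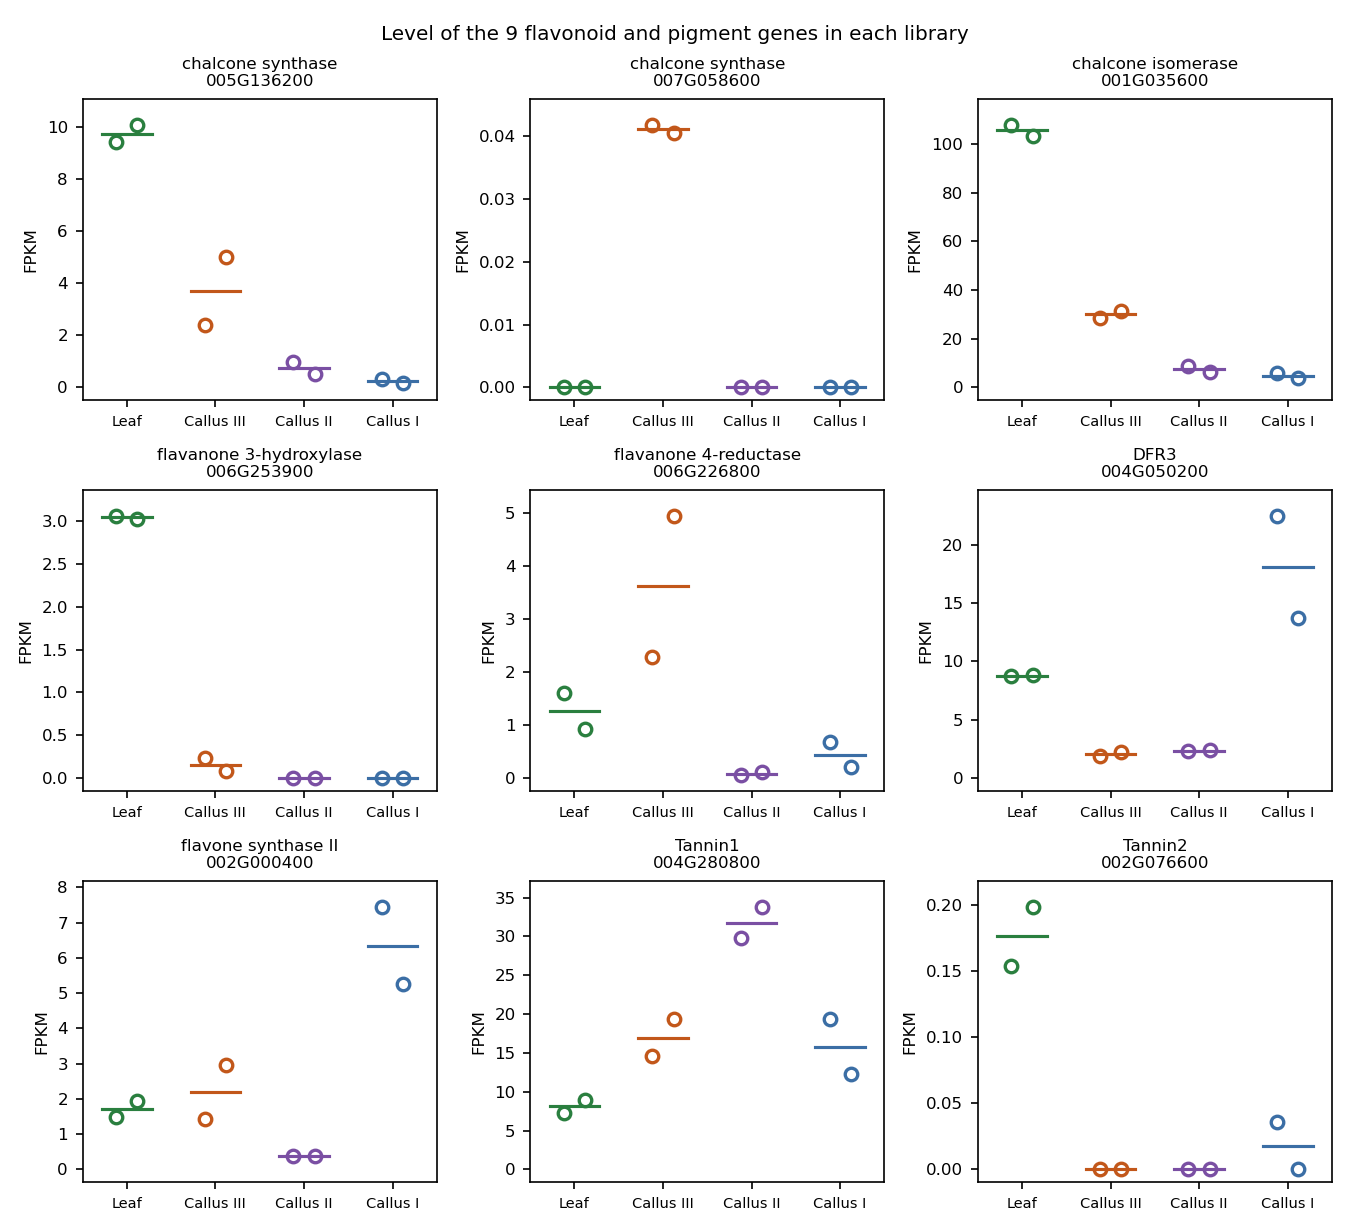
FPKM of each of the 9 genes in each library (open circles, 2 per group) with the group mean (line), each panel on its own linear axis. Chalcone synthase 005G136200 and chalcone isomerase were highest in Leaf and next highest in Callus III, DFR3 and flavone synthase II were highest in Callus I, and Tannin1 was highest in Callus II.

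Of the genes for the entry steps, chalcone synthase 005G136200 and chalcone isomerase were highest in Leaf, intermediate in Callus III and low in Callus II and Callus I. Chalcone synthase Sobic.005G136200.v3.2 lies on chromosome 5 from 58859095 to 58862916. Its Leaf libraries held 9.41 and 10.1 FPKM, those of Callus III 2.40 and 5.01, those of Callus II 0.974 and 0.514, and those of Callus I 0.331 and 0.149. No groups overlapped, and the Callus III libraries differed from each other more than the Leaf libraries did. The mean was 2.63 times higher in Leaf than in Callus III, 13.1 times higher than in Callus II and 40.6 times higher than in Callus I. On the log2 scale Leaf exceeded Callus III by 1.25 ± 0.28 (limma adjusted p = 0.00673), Callus II by 2.63 ± 0.28 (limma adjusted p = 0.000142) and Callus I by 3.12 ± 0.28 (limma adjusted p = 5.61e-05). Callus III was higher than Callus II by 1.39 ± 0.28 (limma adjusted p = 0.00549) and higher than Callus I by 1.87 ± 0.28 (limma adjusted p = 0.00112). The difference of Callus II from Callus I, 0.48 ± 0.28, was not called (limma adjusted p = 0.174, 95% interval -0.185 to 1.15). It was called with a pseudocount of 0.1 FPKM (difference 1.31, limma adjusted p = 0.0458), and the call of Leaf against Callus III was lost without Leaf replicate 2 (limma adjusted p = 0.057).

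Chalcone isomerase Sobic.001G035600.v3.2 (chromosome 1, 2674768 to 2676463) followed the same order at a higher level. Leaf had 108 and 103 FPKM, Callus III had 28.4 and 31.5, Callus II had 8.62 and 6.11, and Callus I had 6.07 and 3.63. The ranges of Callus II and Callus I all but touched, and the other groups were well apart. In Leaf the gene exceeded 96.2% of the tested genes in both libraries, and in Callus III 85.4% and 85.7%, whereas in Callus II and Callus I it lay between 39.3% and 52.3%. Leaf was higher than Callus III by 1.79 ± 0.23 on the log2 scale (limma adjusted p = 0.000428), a ratio of means of 3.53, and higher than Callus I by 4.22 ± 0.23 (limma adjusted p = 4.22e-06), a ratio of 21.8. Against Callus II, the tissue the leaves had grown from, Leaf was higher by 3.69 ± 0.23 (limma adjusted p = 1.04e-05), a ratio of 14.3. Callus III was higher than Callus II by 1.90 ± 0.23 (limma adjusted p = 0.000608) and than Callus I by 2.43 ± 0.23 (limma adjusted p = 0.000111). Between Callus II and Callus I the difference of 0.53 ± 0.23 was not called (limma adjusted p = 0.0774). That call was gained without Callus I replicate 1 (difference 0.84, limma adjusted p = 0.0143) and without Callus II replicate 2 (difference 0.75, limma adjusted p = 0.0498). The difference was smaller without Callus I replicate 2 (0.23, limma adjusted p = 0.365), without Callus II replicate 1 (0.31, limma adjusted p = 0.354) and with median-ratio scaling of the libraries (0.24, limma adjusted p = 0.374).

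Per length, chalcone isomerase was more abundant than chalcone synthase 005G136200 in every library. The isomerase exceeded the synthase 11.5 and 10.3 times in Leaf, 11.9 and 6.29 times in Callus III, 8.85 and 11.9 times in Callus II, and 18.3 and 24.4 times in Callus I. This ratio was highest in Callus I, where the synthase was under 0.4 FPKM in both libraries. Over the 8 libraries, which fall into 4 groups, the Pearson correlation of log2(FPKM + 1) between the genes was 0.987, the highest of the 36 pairs among the 9 genes. This value describes the 4 group levels and is given without a test.

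The other chalcone synthase, Sobic.007G058600.v3.2 (chromosome 7, 6066875 to 6073377), was above 0 in Callus III alone, with 0.0418 and 0.0405 FPKM. Leaf, Callus II and Callus I were listed at 0. Its level was too low for a test. Callus III was not the deepest group by the relative depths above, and the part of depth in the detection was not tested. Chalcone synthases are a multigene family with closely similar copies in sorghum, and how fragments that fit several copies were counted is not given in the sources used here. On chromosome 5 a pair of loci, Sobic.005G136450.v3.2 and Sobic.005G136600.v3.2, start 34353 and 44808 bases after the start of Sobic.005G136200.v3.2 and were listed with identical values in all 8 libraries, up to 0.326 FPKM. Such identity was found for 26 of the 29121 genes above 0 in at least 2 libraries, and for 0 of the 9 genes. Whether the chalcone synthase values hold fragments of a copy was not tested.

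At the flavanone branch point, a different enzyme was the most abundant in Leaf, in Callus III and in the other callus types. Flavanone 3-hydroxylase Sobic.006G253900.v3.2 lies on chromosome 6 from 59156764 to 59158685. Leaf had 3.05 and 3.03 FPKM and Callus III had 0.231 and 0.0840, while the 4 libraries of Callus II and Callus I were listed at 0. It was thus present in Leaf, close to 0 in Callus III and not detected in the other callus types. The mean in Leaf was 19.3 times that in Callus III. No fold is given against groups listed at 0. For Callus III against Callus II or Callus I no p-value is given either, because every callus library was under 1 FPKM. Callus III minus Callus II was 0.21 on the log2 scale with a pseudocount of 1 FPKM and 1.30 with 0.1 FPKM.

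Flavanone 4-reductase Sobic.006G226800.v3.2 (chromosome 6, 57175962 to 57178219) was highest in Callus III. The Leaf libraries held 1.61 and 0.923 FPKM, the Callus III libraries 2.29 and 4.93, the Callus II libraries 0.0664 and 0.110, and the Callus I libraries 0.676 and 0.208. No groups overlapped, and the libraries of Callus III and of Callus I each differed by more than 2-fold within the group. Callus III exceeded Callus II by 2.02 ± 0.31 on the log2 scale (limma adjusted p = 0.00162), a ratio of means of 41.0, and Callus I by 1.63 ± 0.31 (limma adjusted p = 0.00319), a ratio of 8.17. Between single libraries these ratios ran from 20.8 to 74.3 for Callus III over Callus II and from 3.38 to 23.8 for Callus III over Callus I. Leaf was higher than Callus II by 1.04 ± 0.31 (limma adjusted p = 0.0185) and lower than Callus III, with a difference of -0.98 ± 0.31 (limma adjusted p = 0.0266). Leaf against Callus I (0.65 ± 0.31, limma adjusted p = 0.0941, 95% interval -0.073 to 1.38) and Callus II against Callus I (-0.39 ± 0.31, limma adjusted p = 0.307) were not called. The lower level in Leaf than in Callus III was no longer called without Leaf replicate 1 (limma adjusted p = 0.0622), without Leaf replicate 2 (limma adjusted p = 0.179), without Callus III replicate 2 (difference -0.55, limma adjusted p = 0.128), with a pseudocount of 0.1 FPKM (limma adjusted p = 0.067) or in a fit of these groups alone (limma adjusted p = 0.0718). The call of Leaf against Callus II was lost without Leaf replicate 1 (difference 0.82), Callus II replicate 1 (1.01) or Callus II replicate 2 (1.07). Leaf against Callus I was called when either Callus III library was left out. That difference stayed at 0.65, and only its SE, which pools the spread of all groups, fell from 0.31 to 0.22 and 0.21.

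Flavone synthase II Sobic.002G000400.v3.2 (chromosome 2, 123426 to 126059) was highest in Callus I and lowest in Callus II. Leaf held 1.48 and 1.93 FPKM, Callus III held 1.42 and 2.97, Callus II held 0.368 and 0.369, and Callus I held 7.44 and 5.25. Leaf and Callus III overlapped, and the other groups were apart. Relative to Callus I, the gene was lower in Callus II by a log2 difference of -2.41 ± 0.26 (limma adjusted p = 0.000225), lower in Callus III (-1.23 ± 0.26, limma adjusted p = 0.00598) and lower in Leaf (-1.43 ± 0.26, limma adjusted p = 0.00222). The mean in Callus I was 17.2 times that in Callus II. Callus III was higher than Callus II by 1.18 ± 0.26 (limma adjusted p = 0.00819) and Leaf was higher than Callus II by 0.98 ± 0.26 (limma adjusted p = 0.0128). Leaf and Callus III differed by -0.20 ± 0.26 (limma adjusted p = 0.538, 95% interval -0.828 to 0.426). The call of Leaf against Callus II was lost when any of the 4 libraries was left out (limma adjusted p = 0.0511 to 0.097), and that of Callus III against Callus I in a fit of these groups alone (limma adjusted p = 0.0567).

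Set side by side per length, the 3 flavanone-using enzymes gave sums of 6.14 and 5.88 FPKM for Leaf, 3.94 and 7.99 for Callus III, 0.434 and 0.479 for Callus II, and 8.11 and 5.45 for Callus I. Callus II thus held little transcript of any of them. Flavanone 3-hydroxylase made up 49.7% and 51.4% of that sum for Leaf, 5.86% and 1.05% for Callus III and 0% for the other callus types. Flavanone 4-reductase made up 26.2% and 15.7% for Leaf, 58.0% and 61.8% for Callus III, 15.3% and 22.9% for Callus II, and 8.34% and 3.81% for Callus I. Flavone synthase II held the remainder, which was 24.1% and 32.9% for Leaf, 36.1% and 37.2% for Callus III, 84.7% and 77.1% for Callus II, and 91.7% and 96.2% for Callus I. Differences of these low genes grew with a pseudocount of 0.1 FPKM, for example to 4.21 for flavanone 4-reductase and 2.21 for flavone synthase II in Callus III minus Callus II. The shares compare transcripts and say nothing of enzyme activity, and other genes of each enzyme family were not identified in the files.

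**Figure D2:**
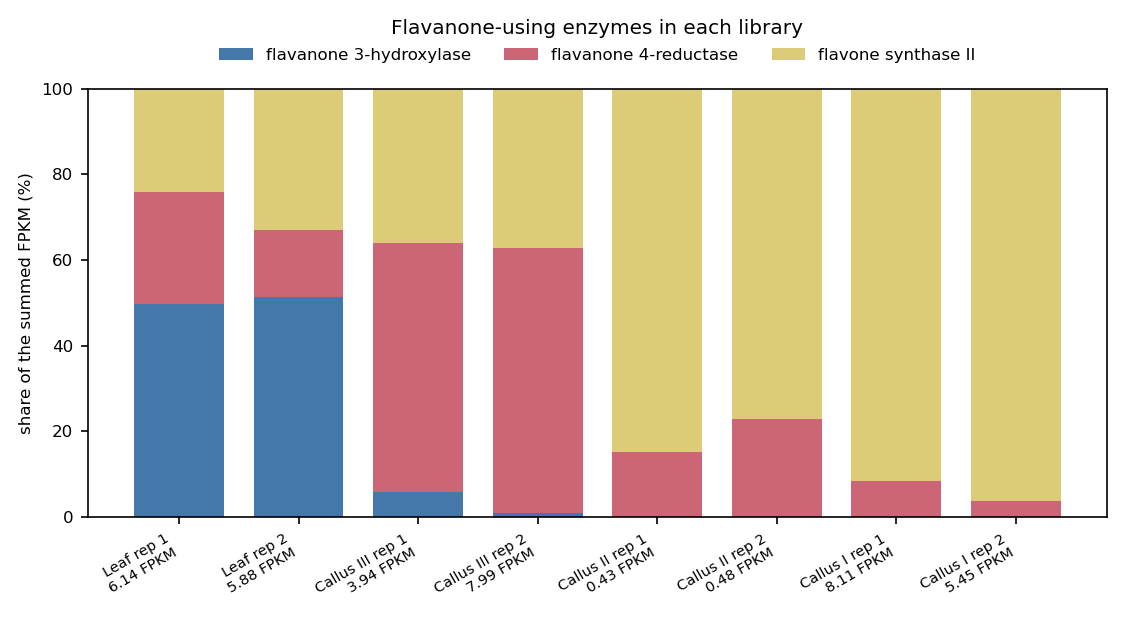
Share (%) of the summed FPKM of flavanone 3-hydroxylase, flavanone 4-reductase and flavone synthase II in each library, with the sum under each bar. Flavanone 3-hydroxylase holds 49.7% and 51.4% in Leaf, flavanone 4-reductase 58.0% and 61.8% in Callus III, and flavone synthase II 77.1% to 96.2% in Callus II and Callus I, where the Callus II sums are only 0.434 and 0.479 FPKM.

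DFR3, Sobic.004G050200.v3.2 (chromosome 4, 4051667 to 4053206), was most abundant in Callus I. Dihydroflavonol reductases act after flavanone 3-hydroxylase, on the way to anthocyanins and condensed tannins. For DFR3, Leaf had 8.73 and 8.82 FPKM, Callus III had 1.87 and 2.29, Callus II had 2.31 and 2.44, and Callus I had 22.4 and 13.8. Callus III and Callus II lay side by side at the low end, Leaf was in between and both Callus I libraries were above all others. In Callus I, DFR3 was thus abundant where the flavanone 3-hydroxylase Sobic.006G253900.v3.2 was listed at 0. Other genes of the flavanone 3-hydroxylase family were not identified. Relative to Callus I, DFR3 was lower in Callus III by a log2 difference of -2.60 ± 0.23 (limma adjusted p = 7.89e-05), lower in Callus II (-2.46 ± 0.23, limma adjusted p = 0.000101) and lower in Leaf (-0.93 ± 0.23, limma adjusted p = 0.00821). The Callus I mean was 8.69 times that of Callus III, 7.63 times that of Callus II and 2.06 times that of Leaf. Leaf was higher than Callus III by 1.67 ± 0.23 (limma adjusted p = 0.000587) and higher than Callus II by 1.54 ± 0.23 (limma adjusted p = 0.000724). Callus III and Callus II differed by -0.13 ± 0.23 (limma adjusted p = 0.656, 95% interval -0.67 to 0.404), a difference that was 0.18 with median-ratio scaling of the libraries and 0.08 when libraries were scaled to equal sums of FPKM over all but the 100 highest genes. The call of Leaf against Callus I was lost without Leaf replicate 1 (limma adjusted p = 0.0607) or Leaf replicate 2 (limma adjusted p = 0.0579), and the difference was -0.59 without Callus I replicate 1 (limma adjusted p = 0.0222).

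Tannin1 Sobic.004G280800.v3.2 (chromosome 4, 62315396 to 62318779) was expressed in all 8 libraries, with its highest level in Callus II and its lowest in Leaf. Leaf had 7.21 and 8.99 FPKM, Callus III had 14.5 and 19.4, Callus II had 29.8 and 33.8, and Callus I had 19.4 and 12.3. Callus III and Callus I overlapped, and both lay between Leaf and Callus II. Its range over the libraries was the narrowest of the 7 tested genes on a relative scale, and it exceeded 50.5% to 83.7% of the tested genes in each library. Tannin1 was lower in Leaf than in Callus II by a log2 difference of -1.85 ± 0.24 (limma adjusted p = 0.000358), with a Callus II mean 3.93 times that of Leaf. Leaf was also lower than Callus III (-0.98 ± 0.24, limma adjusted p = 0.00951) and lower than Callus I (-0.86 ± 0.24, limma adjusted p = 0.0143). Callus II was higher than Callus I by 0.99 ± 0.24 (limma adjusted p = 0.00865), a ratio of means of 2.01. Callus III and Callus I differed by 0.12 ± 0.24 (limma adjusted p = 0.71, 95% interval -0.45 to 0.68).

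The lower Tannin1 level in Callus III than in Callus II (-0.88 ± 0.24, limma adjusted p = 0.0174) depended on the scaling of the libraries. It was not called with median-ratio scaling (-0.44, limma adjusted p = 0.144), with equal sums over all but the 100 highest genes (-0.59, limma adjusted p = 0.0674), without Callus III replicate 1 (limma adjusted p = 0.11) or without Callus II replicate 2 (limma adjusted p = 0.0859). The call of Leaf against Callus III was lost without Callus III replicate 2 (limma adjusted p = 0.065) or Leaf replicate 1 (limma adjusted p = 0.0879), and that of Leaf against Callus I without Callus I replicate 1 (difference -0.55, limma adjusted p = 0.0696) or Leaf replicate 1 (limma adjusted p = 0.112).

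Tannin2 Sobic.002G076600.v3.2 (chromosome 2, 7975937 to 7985221) was near 0 throughout. Leaf had 0.154 and 0.198 FPKM, every library of Callus III and Callus II was listed at 0, and Callus I had 0.0357 and 0. Both Leaf libraries were above all callus libraries, and they were also the deepest by the relative depths above. The part of that depth in the detection was not tested, and the gene was below the limit for a test. Per length, Tannin1 was far more abundant than Tannin2: its lowest library, in Leaf, had 7.21 FPKM, and no library had more than 0.198 FPKM of Tannin2.

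Most genes of the whole table were called in each comparison, so a call alone does not set these genes apart. Of the 6 tested genes other than flavanone 3-hydroxylase, 5 were called in Leaf against Callus III, 3 higher and 2 lower, against 64.1% of all genes tested (38.5% higher and 25.6% lower). In Leaf against Callus II, 6 of 6 were called, 5 higher and 1 lower, where 71.4% of all genes were called (32.4% higher and 39% lower, or 38.7% and 32.6% with median-ratio scaling). Against Callus I, 2 were higher and 3 lower in Leaf, where 70.8% of all genes were called (38.8% higher and 32.1% lower). The median log2 difference of the 6 genes was 0.52 for Leaf minus Callus III, 1.29 for Leaf minus Callus II and -0.10 for Leaf minus Callus I, and that of all genes 0.131, -0.109 and 0.107. These 3 comparisons share the Leaf libraries and are not independent of each other.

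Between callus types, 5 of the 6 genes were called in Callus III against Callus II, 4 higher and 1 lower, with 57.3% of all genes called (15.1% higher and 42.3% lower). With median-ratio scaling the calls over all genes split into 22.7% higher and 23.3% lower, or 19.5% and 28.3% with equal sums over all but the 100 highest genes. In Callus III against Callus I, 3 were higher and 2 lower, where 60.1% of all genes were called (26.9% higher and 33.2% lower, or 35.1% and 27.3% with those equal sums). Callus II against Callus I had the fewest, 1 higher and 2 lower, where 64.5% of all genes were called (39.1% higher and 25.4% lower, or 30% and 32.3% with median-ratio scaling). The median difference of the 6 genes was 1.28 for Callus III minus Callus II, 0.87 for Callus III minus Callus I and 0.048 for Callus II minus Callus I, and that of all genes -0.33, -0.031 and 0.18. Median-ratio scaling moved the median of all genes to 0, 0.019 and 0 in these comparisons.

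**Figure D3:**
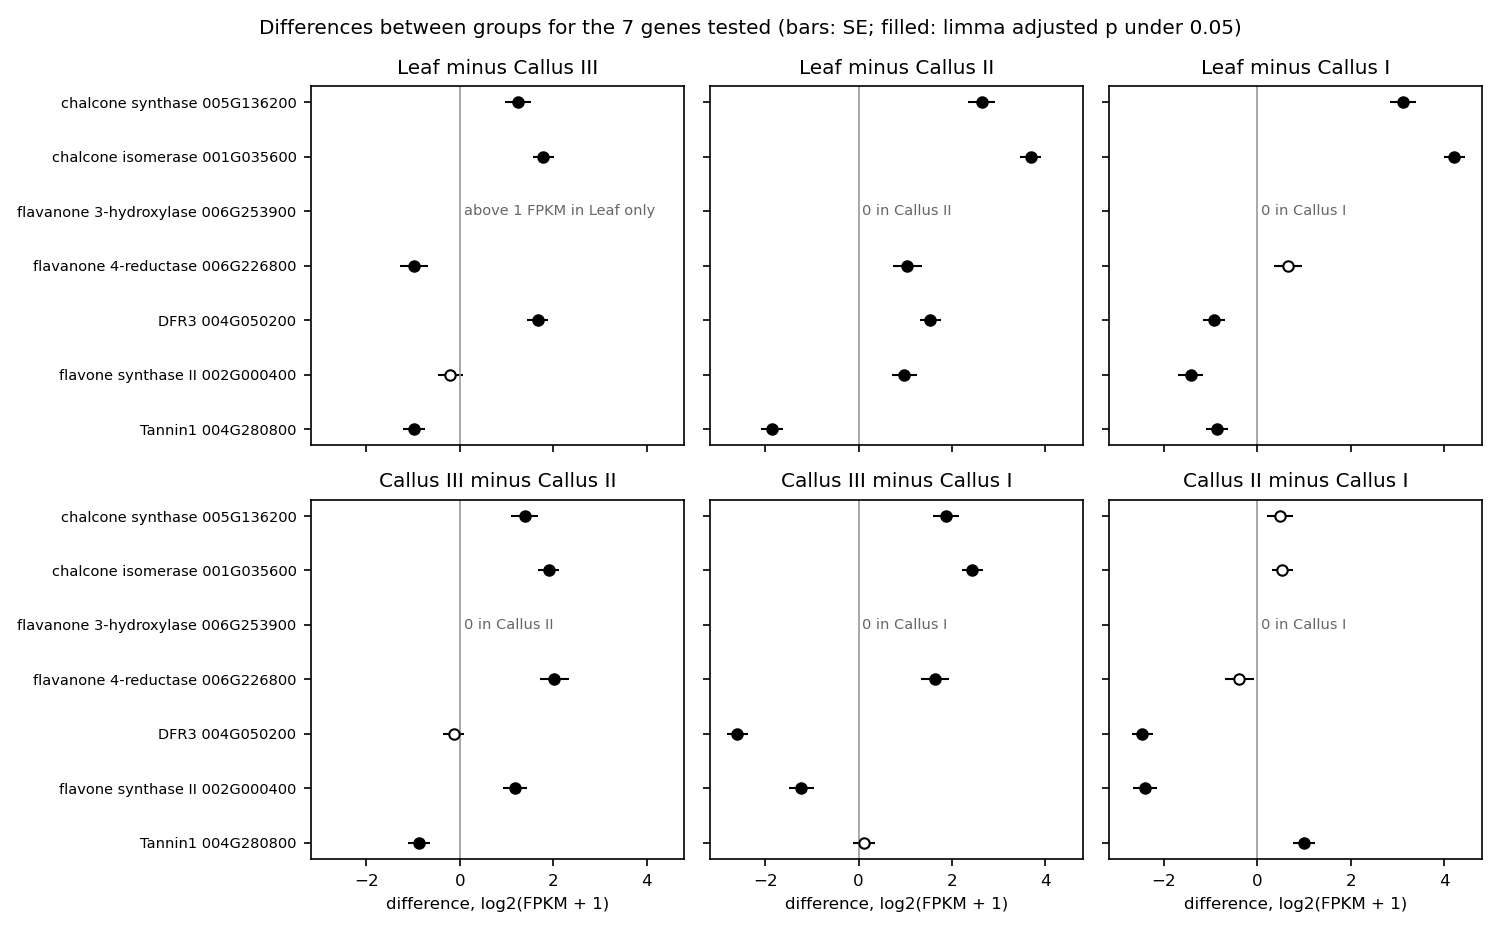
Difference between groups on the log2(FPKM + 1) scale for the 7 tested genes in each of the 6 comparisons, with SE bars; filled points are called by limma (adjusted p under 0.05), and no point is drawn for flavanone 3-hydroxylase, which reached 1 FPKM in Leaf alone or was compared with a group listed at 0. Chalcone synthase and chalcone isomerase lie to the right of 0 in every panel, with open points in Callus II minus Callus I, while Tannin1 lies to the left in every panel with Leaf.

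0 of the 9 loci overlapped another locus. Of the 18 loci next to them by order of start, 10 were tested and lay beside one of the tested genes. In 3 of these 10 the group with the highest mean was that of the neighbouring pathway gene, and in the other 7 it was another group. How often neighbours match over all genes was not determined, so the count is a description only. Among the 7, Sobic.006G226700.v3.2 had overlapping groups (4.01 and 7.94 FPKM in Callus I, 3.96 and 5.57 in Leaf). The values of these loci were seen before they were described, so they are given without a test, and the files give them no name.

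Among the 3 with the same highest group, Sobic.004G280700.v3.2, which ends 1776 bases before Tannin1, stood at 21.9 and 21.3 FPKM for Leaf, 41.0 and 44.0 for Callus III, 77.9 and 77.0 for Callus II, and 35.3 and 22.2 for Callus I. Leaf was lowest and Callus II highest, as for Tannin1. Sobic.004G050100.v3.2, 5722 bases before DFR3, stood at 92.2 and 94.99 FPKM for Leaf, 43.6 and 42.9 for Callus III, 31.9 and 29.8 for Callus II, and 157 and 155 for Callus I. Callus I was highest and Leaf next, as for DFR3. Sobic.002G000350.v3.2, 6156 bases before flavone synthase II, was likewise highest in Callus I, at 4.46 and 3.45 FPKM. It lies within Sobic.002G000300.v3.2 (115134 to 119162), which starts earlier but ends nearer to flavone synthase II. That longer locus was highest in Callus II, at 42.1 and 38.5 FPKM, against 15.8 and 12.8 in Callus I. The match of flavone synthase II with its neighbour thus holds by order of start only.

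Among the 7 others, Sobic.004G280900.v3.2, 3159 bases after Tannin1, stood at 0.901 and 1.19 FPKM for Leaf, 1.71 and 2.23 for Callus III, 5.25 and 7.15 for Callus II, and 51.4 and 71.4 for Callus I. It was highest in Callus I, whereas Tannin1 was highest in Callus II. Sobic.005G136300.v3.2, 16975 bases after chalcone synthase 005G136200, stood at 0.409 and 0.302 FPKM for Leaf, 2.05 and 3.35 for Callus III, 0.0509 and 0 for Callus II, and 0.355 and 0.265 for Callus I, and reached 1 FPKM in Callus III alone. Sobic.006G226900.v3.2, 2347 bases after flavanone 4-reductase, reached 1 FPKM in Leaf alone, with 3.53 and 3.11 FPKM in Leaf, 0.214 and 0.104 in Callus III and 0 in the other callus types. Sobic.002G000500.v3.2, 3144 bases after flavone synthase II, had 67.6 and 69.5 FPKM in Leaf and at most 0.113 in any callus library.

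**Figure D4:**
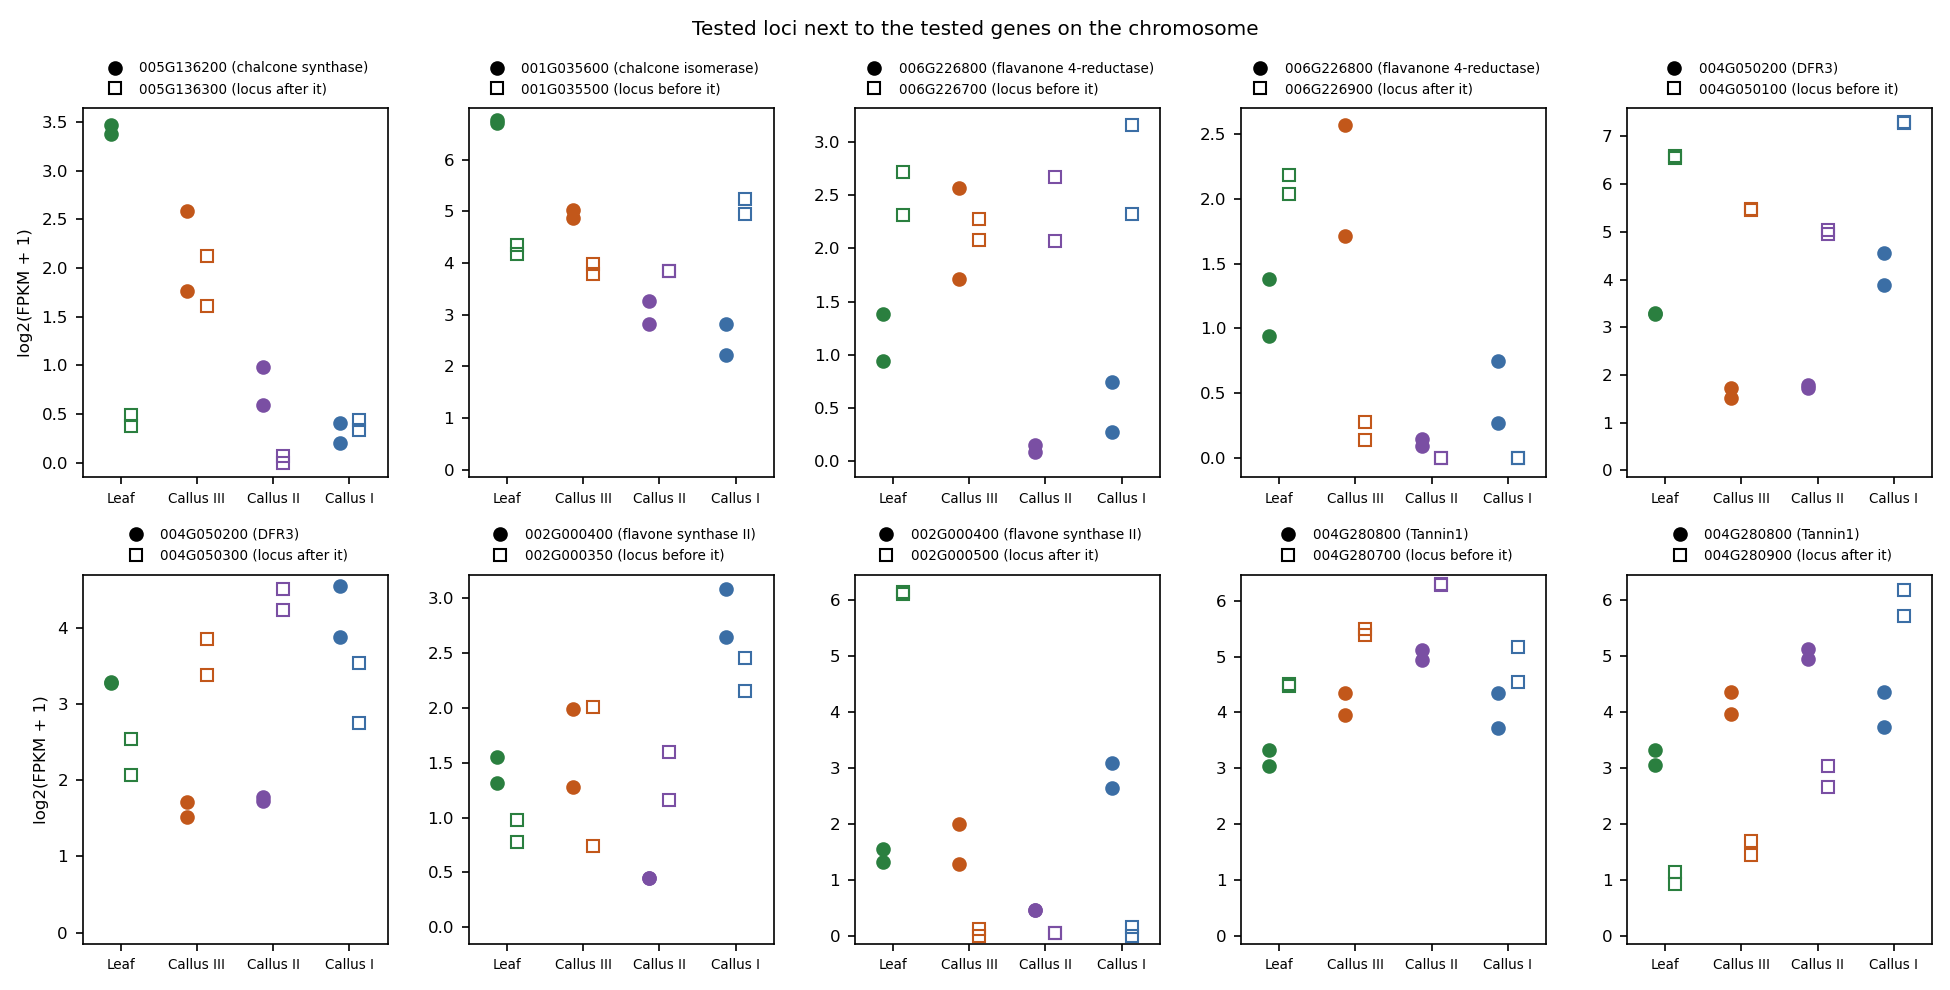
log2(FPKM + 1) in the 2 libraries of each group, for the tested genes (filled circles) and 10 tested loci beside them (open squares). Neighbours were taken by order of start, and each panel has its own axis. The locus before Tannin1 is highest in Callus II like Tannin1 (77.9 and 77.0 FPKM), the locus after it is highest in Callus I (51.4 and 71.4 FPKM), and the locus after flavone synthase II is high in Leaf alone (67.6 and 69.5 FPKM).

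Outside the 9 genes, the genes of most similar pattern were sought among 15282 genes that reached 10 FPKM in a library, by the Pearson correlation of log2(FPKM + 1) over the 8 libraries. The value is a description over 4 groups, and many genes share so simple a pattern. For chalcone synthase 005G136200 the nearest was Sobic.002G052000.v3.2 (r = 0.990), which had 103 and 105 FPKM for Leaf, 17.0 and 28.1 for Callus III, 1.88 and 0.328 for Callus II and 0 for Callus I. In all, 145 genes had r of at least 0.95. For chalcone isomerase it was Sobic.004G314500.v3.2 (r = 0.996) of 214 such genes, and for flavanone 3-hydroxylase Sobic.003G264700.v3.2 (r = 0.9999) of 1093. The pattern of flavanone 4-reductase was the least shared, with 10 genes at 0.95 or more, led by Sobic.009G052200.v3.2 (r = 0.984), which ranged only from 20.2 to 45.1 FPKM. Flavanone 4-reductase itself differed between the libraries of Callus III (2.29 and 4.93 FPKM) and of Callus I (0.676 and 0.208). The part of that spread in the low count was not tested.

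For DFR3 the nearest was Sobic.008G074500.v3.2 (r = 0.995), with 12.4 and 13.2 FPKM for Leaf, 0.230 and 0.586 for Callus III, 0.586 and 1.36 for Callus II, and 85.4 and 46.6 for Callus I. Flavone synthase II had 27 genes at 0.95 or more, the first being Sobic.002G385450.v3.2 (r = 0.981), with 51.0 and 46.7 FPKM in Callus I. For Tannin1 the first was Sobic.004G152400.v3.2 (r = 0.993), with 33.5 and 35.0 FPKM for Leaf, 67.9 and 81.5 for Callus III, 154 and 172 for Callus II, and 85.0 and 52.7 for Callus I. No similar genes are named for the chalcone synthase of chromosome 7 and Tannin2, whose values were too close to 0.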

How the data were processed

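The deposited values are FPKM per gene, 1 table per library, as the authors' file headers name them. Per the submitters' processing notes the tools were Trimmomatic, TopHat2 2.0 and Cuffdiff, with no roles given. Not given in the sources used here: genome build, annotation, settings and use of strand. FPKM of all genes moves when a few abundant ones take more fragments, so 2 other scalings were tried: median ratios, and equal sums over all but the 100 highest genes.

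Tables were joined by identifier. Printed starts are 1 base above the deposited ones, since 884 starts then equalled a gene start in a RefSeq table of 32945 sorghum genes (NCBIv3), against 345 unchanged. That table held 0 of the identifiers and no gene descriptions, so the lists of other pathway genes and of tissue markers, which were defined by description, had 0 members.

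The 23166 genes that reached 1 FPKM in 2 or more libraries were fitted as log2(FPKM + 1) in limma 3.58.1 (R 4.3.3) over all 8 libraries. The fit had 1 mean per group, a variance trend (prior degrees of freedom 2.83) and 2-sided moderated tests. Fold changes on this scale understate changes of low genes. With 2 libraries a group the smallest 2-sided permutation p is 0.333, so calls rest on variance shared across genes. The labels do not say whether replicates came from separate cultures, so the p-values may measure technical spread only. The 9 genes and all lists were chosen with earlier results of these data known. All 9 were named. Genes of similar pattern were named by the highest correlation among up to 2 allowed per gene. Alternatives were the pseudocount, the filter, the scaling, the variance model, a replicate block, fits of the compared groups alone and leaving out each library.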

Additional observations from a re-analysis of the deposited data

How the results depend on the processing

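Counts of called genes here include flavanone 3-hydroxylase, which passed the filter through Leaf alone, so those with Leaf differ from the counts given above. With that gene, the main fit called 6, 7 and 6 genes in Leaf minus Callus III, Callus II and Callus I. Without it the counts were 5, 6 and 5. Its high Leaf values let it pass, so its own calls with Leaf are no measure of stability. The same fit called 5 in Callus III against Callus II and against Callus I, and 3 in Callus II minus Callus I. Of all genes tested, it called 64.1%, 71.4% and 70.8% in Leaf minus Callus III, Callus II and Callus I. Between callus types it called 57.3% in Callus III minus Callus II, 60.1% in Callus III minus Callus I and 64.5% in Callus II minus Callus I. The number of pathway genes called stayed within 1.5 times the counts of the main fit under each alternative that kept all 8 libraries, with 1 exception. A filter at a mean of at least 5 FPKM left 3 of the 9 genes to test (chalcone isomerase, DFR3 and Tannin1). It called 3 in each comparison of Leaf with Callus III, Callus II and Callus I, and 2 in Callus III against Callus II and against Callus I. Under that filter 14779 genes were tested. The calls over all genes were 10112 against 14842 in Leaf minus Callus III and 10816 against 16545 in Leaf minus Callus II. They were 10695 against 16406 in Leaf minus Callus I and 9938 against 14936 in Callus II minus Callus I. Leaving out 1 library at a time leaves a lone library in 1 group, so counts of called genes are not given for those fits. A lone library is then assumed to vary like the other groups.

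Of 715 single differences recomputed, 676 kept their direction and their side of the threshold, 24 lost a call, 10 gained one and 5 changed sign. None of the sign changes was a called difference. Flavone synthase II in Leaf minus Callus III ranged from -0.56 to 0.15 when 1 library was left out, and was 0.15 without Callus III replicate 2. DFR3 in Callus III minus Callus II was 0.18 with median-ratio scaling and 0.076 with equal sums over all but the 100 highest genes. Tannin1 in Callus III minus Callus I ranged from -0.19 to 0.42, at -0.19 without Callus I replicate 2 and -0.08 without Callus III replicate 2. The cause was not tested. The order of the 4 groups was kept for 7 to 9 of the 9 genes when a library was left out, and for 8 with either scaling.

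Deviations of same-numbered libraries correlated at -0.103 to 0.018 over 23166 genes, so they shared no strong shift. Whether same-numbered libraries shared a culture or a batch cannot be told from these correlations. With the replicate block, and with flavanone 3-hydroxylase included, the genes called numbered 6, 7 and 6 in Leaf minus Callus III, Callus II and Callus I. The calls of flavanone 3-hydroxylase in these comparisons are again no measure of stability. Over all 23166 tested genes the block gave 14438, 16252 and 16127 calls in these comparisons. The genes called numbered 5 in Callus III against Callus II and against Callus I, and 3 in Callus II minus Callus I. These counts were the same without the block, where 57.3%, 60.1% and 64.5% of all genes were called between callus types. Depth is unknown, which limits what can be said of genes listed at 0.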

Other observations

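Beyond the next locus, a stretch of chromosome 6 after flavanone 4-reductase held another gene that was highest in Leaf, chosen after its values were seen. Sobic.006G227000.v3.2, whose start lies 9041 bases after that of flavanone 4-reductase, stood at 19.3 and 17.3 FPKM for Leaf, 3.69 and 4.10 for Callus III, 0.0482 and 0 for Callus II, and 0 for Callus I. Both Leaf libraries were above both Callus III libraries, and the other callus libraries were at or near 0. Its level in Leaf was above that of flavanone 4-reductase, at 1.61 and 0.923 FPKM. The files give it no name.

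Within 50000 bases, the number of loci differed widely between the genes, from 3 around chalcone synthase 005G136200 and 4 around the chalcone synthase of chromosome 7 to 19 around chalcone isomerase. Of those, 1, 3 and 15 were tested.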
